A study of Mus musculus with 17 samples.

Results

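The genes described here are 8 members of the chemokine system, namely the ligands Ccl2, Ccl3, Ccl4, Cxcl12 and Cx3cl1, the signalling receptors Ccr1 and Cxcr4, and the atypical receptor Ackr3. They were selected from the 55359 genes of the deposited count table by their gene symbols, with earlier results of the same libraries known. Their differences from WT are therefore given as a description, and the thresholds they pass or miss do not count as independent evidence. All 8 symbols were found in the table. The other members of the chemokine family were taken from a list of 65 ligands and receptors, all of which were found.

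RNA was sequenced from testes and brains of male mice at postnatal day 1, in the Ocn_GK strain on a 129/SvEv background. WT pups were born from WT mothers, whereas both Ocn+/- and Ocn-/- pups were born from Ocn-/- mothers, so that the genotype of the pup, the genotype of the mother and the litter changed together and cannot be told apart in any comparison with WT. There were 2 WT, 3 Ocn+/- and 3 Ocn-/- testes, and 3 brains of each genotype. The labels call the brain tissue hippocampus, and the study describes it as forebrain including the hippocampus, the name used here. The comparison of Ocn-/- with Ocn+/- pups is the only one in which all mothers had the same genotype. Nothing in the labels ties a testis to a forebrain of the same pup, and p-values measure the spread between these libraries.

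The libraries held 7302401 to 8289015 counts in testes and 6518151 to 14621584 in forebrain. Forebrain WT 3 stood apart, with the fewest counts of all and 8.5% of them on the ribosomal RNA gene Rn18s-rs5, against 0.261% to 0.805% in the other forebrains. The osteocalcin genes could not check the genotypes, since Bglap had 0 to 5 counts in every library and Bglap2 had 0 in all of them. The summed level of 9 forebrain genes was 2811 to 3625 CPM (counts scaled to the same library total) in the forebrains and 114 to 227 CPM in the testes, while that of 6 midbrain and hindbrain genes was at most 0.806 CPM in the forebrains. The summed level of 8 testis cell genes was 1641 to 2232 CPM in the testes and 34.3 to 51.9 CPM in the forebrains.

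Chemokines are small secreted proteins that attract cells along a gradient and are read by receptors coupled to inhibitory G proteins. Cxcl12 and its receptor Cxcr4 guide germ cells, neuronal precursors and blood vessels during development, and Ackr3 shapes that gradient by taking up Cxcl12 without signalling through G proteins. Ccl3 and Ccl4 are inflammatory chemokines of macrophages and microglia, Ccl3 being a ligand of Ccr1, and Ccl2 attracts monocytes. Cx3cl1, also called fractalkine, is made as a membrane protein by neurons and other cells and is read by Cx3cr1 on microglia and macrophages.

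The 250 bases before the annotated start site of Ccl3, Ccr1 and Cxcr4 are shown because these genes had the largest fitted differences from WT among the members that passed the filter on low counts. The sequences are from GRCm39 at the start of the canonical GENCODE transcript and are written in the direction of transcription. Ccl3 is on the minus strand (window chr11:83540192-83540441), as are Ccr1 (chr9:123768735-123768984) and Cxcr4 (chr1:128520045-128520294). Capitals mark matches to 6 motifs, which were the NF-kB site by its usual degenerate form, the AP-1 site TGANTCA, the cAMP response element TGACGTCA, the core ACGTG of the site of hypoxia-inducible factors and the GC box GGGCGG on both strands, and the TATA box TATAAA on the transcribed strand. A match is a description of the letters and shows no binding.
Ccl3: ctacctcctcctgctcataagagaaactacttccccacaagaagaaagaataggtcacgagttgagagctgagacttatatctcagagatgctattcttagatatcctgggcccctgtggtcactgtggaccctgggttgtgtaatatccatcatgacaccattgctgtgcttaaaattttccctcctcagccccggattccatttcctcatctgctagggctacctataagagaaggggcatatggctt
Ccr1: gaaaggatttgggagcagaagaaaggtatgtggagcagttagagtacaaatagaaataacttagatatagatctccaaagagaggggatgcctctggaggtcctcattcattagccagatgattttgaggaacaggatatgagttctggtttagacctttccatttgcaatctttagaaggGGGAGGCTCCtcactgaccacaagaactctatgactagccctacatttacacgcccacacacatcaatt
Cxcr4: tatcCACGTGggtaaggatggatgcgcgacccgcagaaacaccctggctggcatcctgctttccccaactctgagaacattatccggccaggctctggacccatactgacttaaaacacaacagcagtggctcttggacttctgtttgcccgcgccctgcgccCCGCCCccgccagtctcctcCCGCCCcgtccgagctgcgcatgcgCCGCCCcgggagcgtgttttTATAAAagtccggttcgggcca

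The Cxcr4 window held 3 GC boxes, a TATA box from 22 to 17 bases before the start, and the core ACGTG on both strands in overlapping positions 246 to 241 bases before it. Over the same windows of 21770 protein-coding genes, 36.3% held a GC box, 8.03% the TATA box and 17% the core ACGTG. The Ccr1 window held 1 match to the NF-kB site, 69 to 60 bases before the start, a motif present in 7.62% of all windows. The Ccl3 window held none of the 6 motifs. The AP-1 site occurred in 6.17% and the cAMP response element in 1.69% of all windows, and in none of the windows of the 8 genes. Cxcl12 held 5 GC boxes, 2 of them sharing 1 base, and Ackr3 held 1. The windows of Ccl2, Ccl4 and Cx3cl1 held no match.

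Called genes are those for which the quasi-likelihood test of edgeR, adjusted over all genes tested in an organ, gave a p below 0.05. The genes tested, those with enough counts, were 16361 in testes and 16076 in forebrain. The filter on low counts kept 5 of the 8 genes in testes (Cxcl12, Cx3cl1, Ccr1, Cxcr4 and Ackr3) and 6 in forebrain, the same ones and Ccl3. Ccl3 in forebrain and Ccr1 in both organs passed it only through the mutant libraries, where they were high, so that a gene so low in WT could enter the test only by differing. Ccl2 and Ccl4 were tested in neither organ. Against WT, 2 of the 8 genes were called in Ocn+/- testes, Cxcl12 and Cxcr4, where 8.25% of all genes tested were called. In Ocn-/- testes 2 were called, Cxcr4 and Ccr1, against 5.64% of all genes. In Ocn+/- forebrains 2 were called, Ccl3 and Ccr1, against 3.89% of all genes, and in Ocn-/- forebrains 1 was called, Ccl3, against 4.85%. Without forebrain WT 3 none of these forebrain calls held. Since the 8 genes were chosen with these comparisons known, nothing is read from their counts against these shares. Whether libraries of 2 groups overlapped is also only a description, and the share of all genes with groups apart was not counted. With 2 WT and 3 mutant testes, groups lay apart for uncalled family genes too, such as Cxcl14 (all lower) and Ackr1 (all higher) in Ocn+/- testes. The median difference from WT over all genes lay between -0.0064 and 0.0066 on the log2 scale in the 4 comparisons.

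**Figure D1:**
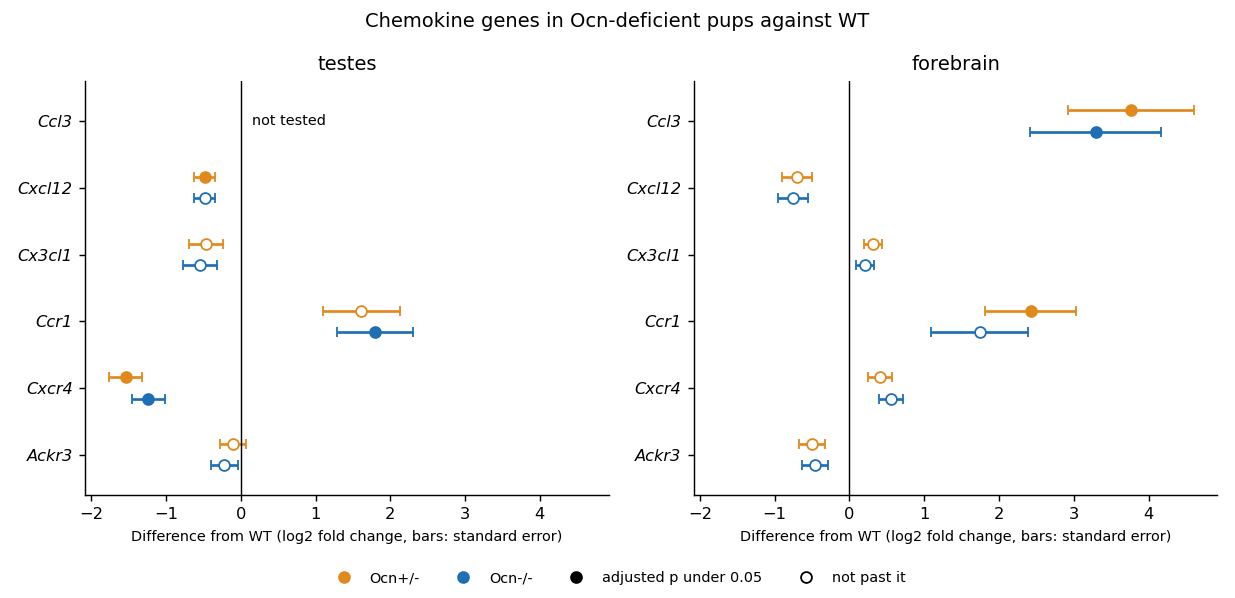
Difference from WT of the 6 tested genes in testes (left) and forebrain (right), as log2 fold change with its standard error from edgeR. Orange points are Ocn+/- and blue points Ocn-/- pups, and filled points passed an adjusted p of 0.05. Cxcr4 was lower in mutant testes (-1.54 and -1.23) and Ccl3 higher in mutant forebrains (3.76 and 3.29).

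Among the inflammatory ligands, Ccl3 was read in forebrains of mutant pups and was close to absent elsewhere. Ccl3 (ENSMUSG00000000982, chr11:83538670-83540191, minus strand) had 0, 2 and 0 counts in WT forebrains, 18, 15 and 15 in Ocn+/- and 14, 13 and 6 in Ocn-/- forebrains. All 6 mutant libraries were above the WT libraries. These counts are levels of 0.0768 ± 0.133 CPM (SD, n = 3) in WT, 1.13 ± 0.109 CPM in Ocn+/- and 0.813 ± 0.337 CPM in Ocn-/- forebrains. Relative to library size, the summed counts were 15.5 times those of WT in Ocn+/- (95% interval 4.05 to 131) and 11.1 times in Ocn-/- forebrains (2.84 to 95.5). These exact intervals cover counting error only and rest on 2 WT counts. The fitted differences were 3.76 ± 0.84 on the log2 scale (SE; edgeR adjusted p = 0.0162) and 3.29 ± 0.88 (0.0363).

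Without the filter the adjusted p of Ccl3 were 0.00156 and 0.0101. The Ccl3 calls depended on single libraries. WT 2 was the only WT forebrain with Ccl3 counts, and without it both calls held with fitted values of 6.86 and 6.39, which are no bound since the other WT forebrains were at 0. Without forebrain WT 3 the differences were 3.46 and 2.99 on the log2 scale, with edgeR adjusted p of 0.0801 and 0.133, and without WT 1 they were 2.95 and 2.48, with 0.0852 and 0.14. The Ocn-/- call was also lost without Ocn-/- 1 (adjusted p 0.102), Ocn-/- 2 (0.0937) or Ocn+/- 2 (0.0525). In testes Ccl3 had 0 or 1 count in each of the 8 libraries. Of the exon bases of Ccl3, 35.6% lie opposite an annotated antisense gene, Gm53692, from which its reads cannot be told apart where strand is not used in counting.

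Ccl4, which is transcribed away from Ccl3 with the start sites 13192 bases apart, was at the limit of detection in every group. Ccl4 (ENSMUSG00000018930, chr11:83553383-83555509, plus strand) had 0 counts in all 3 WT forebrains, 2, 0 and 3 in Ocn+/- and 2, 3 and 0 in Ocn-/- forebrains. No library of either group was above 3 counts, the floor used here, so no fold is given. A count of 0 allows up to 3 counts, which is 0.229 to 0.534 CPM in the WT forebrains. In testes 1 Ocn+/- library had 1 count and the other 7 had 0.

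Ccl2 (ENSMUSG00000035385, chr11:81926397-81928279, plus strand) also had too few counts for a test. In forebrain its counts were 1, 0 and 0 in WT, 6, 2 and 8 in Ocn+/- and 1, 3 and 7 in Ocn-/- pups. The ratio of summed counts to WT was 10.3 in Ocn+/- (95% interval 1.6 to 432) and 7.4 in Ocn-/- forebrains (1.08 to 319), again for counting error only and resting on 1 WT count. The library Ocn-/- 1 had no more Ccl2 counts than WT 1. In testes Ccl2 had 1 and 7 counts in WT, 4, 3 and 3 in Ocn+/- and 2, 1 and 1 in Ocn-/- pups, and the groups overlapped. Fitted without a filter on low counts, Ccl2 had edgeR adjusted p of 0.252 and 0.375 in Ocn+/- and Ocn-/- forebrains, and Ccl4 of 0.467 and 0.447.

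**Figure D2:**
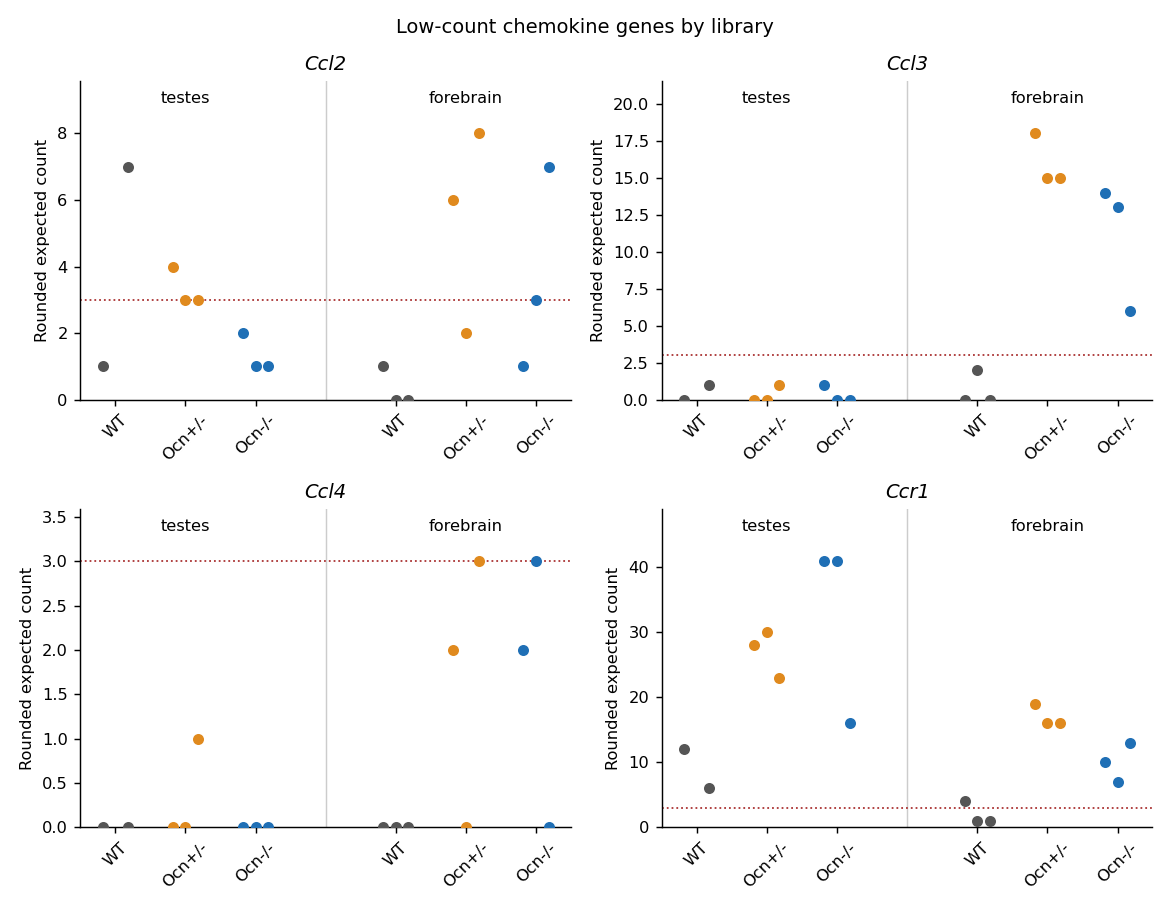
Rounded expected counts of Ccl2, Ccl3, Ccl4 and Ccr1 in each library (points), by genotype, with testes to the left and forebrain to the right of the grey line. The dotted line marks 3 counts, the most that a count of 0 allows. Ccl3 is over 3 counts in all 6 mutant forebrains and in no other library.

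Ccr1, the receptor of Ccl3 on myeloid cells, had more counts in mutant pups in both organs. Ccr1 (ENSMUSG00000025804, chr9:123762161-123768734, minus strand) had 12 and 6 counts in WT testes, 28, 30 and 23 in Ocn+/- and 41, 41 and 16 in Ocn-/- testes. In forebrain it had 4, 1 and 1 counts in WT, 19, 16 and 16 in Ocn+/- and 10, 7 and 13 in Ocn-/- pups. Mutant and WT libraries did not overlap in either organ. As levels these were 1.16 ± 0.564 CPM (SD, n = 2) in WT testes, 3.56 ± 0.342 CPM (n = 3) in Ocn+/- and 4.04 ± 1.75 CPM in Ocn-/- testes. In forebrain they were 0.199 ± 0.0967 CPM (n = 3) in WT, 1.2 ± 0.1104 CPM in Ocn+/- and 0.749 ± 0.258 CPM in Ocn-/- pups.

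The fitted Ccr1 differences from WT were 1.61 ± 0.51 (SE; edgeR adjusted p = 0.061) in Ocn+/- and 1.79 ± 0.51 (0.0494) in Ocn-/- testes on the log2 scale. In forebrain they were 2.42 ± 0.61 (0.0318) in Ocn+/- and 1.74 ± 0.65 (0.117) in Ocn-/- pups. Without the filter the values of Ccr1 in forebrain had adjusted p of 0.0215 and 0.181. Both calls lay close to the threshold. The call in Ocn-/- testes was lost without any 1 of the 8 libraries other than Ocn-/- 3, with adjusted p from 0.0502 without Ocn+/- 2 to 0.436 without WT 2. The call in Ocn+/- forebrains was lost without any 1 of the 3 WT or 3 Ocn+/- libraries, with adjusted p from 0.0612 without WT 1 to 0.116 without WT 3.

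In forebrain none of the macrophage and microglia markers was called, and their signs were mixed. Of the 15 tested, 11 were above 0 in Ocn+/- and 9 in Ocn-/- pups, with medians of 0.14 and 0.14 on the log2 scale. The summed level of 16 such markers was 154 to 161 CPM in WT, 154 to 186 CPM in Ocn+/- and 141 to 182 CPM in Ocn-/- forebrains, and 0 of the 15 tested were called by edgeR or DESeq2 in either mutant genotype, with 1 and 2 at an unadjusted p under 0.05 in Ocn+/- and Ocn-/- pups. Csf1r, the receptor that macrophages need to survive, is a single gene of this list and differed from WT by 0.04 ± 0.15 and -0.02 ± 0.15 on the log2 scale (SE). In testes the sum was 255 to 274 CPM in WT, 249 to 296 CPM in Ocn+/- and 163 to 248 CPM in Ocn-/- pups, and 2 of 16 markers were called in Ocn+/- testes, beside 8.25% of all genes, Cd68 (1.32) and Trem2 (2.59), both higher. Of the 8 genes of activated microglia, 6 were tested in forebrain. There edgeR called 2 in Ocn+/- and 3 in Ocn-/- pups, beside 3.89% and 4.85% of all genes. Spp1 was higher in Ocn+/- (1.55) and Ocn-/- forebrains (1.42) and so was Igf1 (1.19 and 0.82), by both edgeR and DESeq2. Gpnmb had differences of 1.76 and 2.20, of which edgeR called the second and DESeq2 the first. In testes edgeR called 4 of the 6 in Ocn+/- pups, beside 8.25% of all genes, with Spp1 (-0.94), Lpl (-1.13) and Igf1 (-0.53) lower and Gpnmb (3.17) higher, and 2 in Ocn-/- pups, beside 5.64%, Spp1 (-0.72) and Apoe (-0.63), both lower. In these whole-tissue libraries, more cells of a type and more RNA per cell cannot be told apart, and the part of these markers in the differences of Ccl3 and Ccr1 was not tested.

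Cxcl12 was the most abundant chemokine of the testes and was lower in every mutant library than in every WT library of the same organ. Cxcl12 (ENSMUSG00000061353, chr6:117144945-117158328, plus strand) was at 583 and 591 CPM in WT testes, 340, 501 and 418 CPM in Ocn+/- and 437, 423 and 402 CPM in Ocn-/- testes. In forebrain it was at 87.5, 108 and 119 CPM in WT, 60.1, 52.1 and 80.0 CPM in Ocn+/- and 57.0, 51.1 and 77.0 CPM in Ocn-/- pups. The WT and mutant libraries were apart in both organs, by the least in forebrain, where the lowest WT library was at 87.5 and the highest mutant one at 80.0 CPM.

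The fitted Cxcl12 differences in testes were -0.48 ± 0.14 in Ocn+/- (SE; edgeR adjusted p = 0.0439) and -0.48 ± 0.14 in Ocn-/- pups (0.0543), so that the same difference fell on either side of the threshold. In forebrain they were -0.70 ± 0.20 (0.0875) and -0.76 ± 0.20 (0.0622), and edgeR called neither, whereas DESeq2 called both (adjusted p 0.000992 and 0.000265). The Ocn+/- value was called under 6 and the Ocn-/- value under 10 of 17 alternatives. The adjusted p moved across the threshold with the settings, from 0.00738 to 0.274 over 16 alternatives in Ocn+/- testes, 0.01 to 0.406 over 16 in Ocn-/- testes, 1.61e-07 to 0.261 over 17 in Ocn+/- and 1.43e-08 to 0.21 over 17 in Ocn-/- forebrains. Without any 1 of the libraries WT 1, WT 2, Ocn+/- 1, Ocn+/- 3 and Ocn-/- 1 the call in Ocn+/- testes was lost, with adjusted p of 0.222, 0.274, 0.169, 0.117 and 0.0592, as it was with library size alone (0.0669). In all alternatives the sign of the 4 differences stayed negative.

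Cxcr4, the signalling receptor of Cxcl12, fell in mutant testes. Cxcr4 (ENSMUSG00000045382, chr1:128515936-128520044, minus strand) was at 27.6 and 30.03 CPM in WT testes, 10.8, 11.4 and 7.56 CPM in Ocn+/- and 11.9, 14.5 and 10.4 CPM in Ocn-/- testes. The highest mutant value, 14.5 CPM, was below the lowest WT value, 27.6 CPM. The difference from WT was -1.54 ± 0.22 on the log2 scale in Ocn+/- (SE; edgeR adjusted p = 0.000953), a level 2.91-fold lower, and -1.23 ± 0.22 in Ocn-/- testes (0.00401), 2.35-fold lower. The call in Ocn+/- testes held in all 16 alternatives and that in Ocn-/- testes in 15, the exception being the fit without testis WT 2 (-1.15, adjusted p = 0.106).

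In forebrain the direction of Cxcr4 was the opposite. It was at 28.1, 21.9 and 26.3 CPM in WT, 36.7, 38.5 and 26.6 CPM in Ocn+/- and 43.3, 30.5 and 38.5 CPM in Ocn-/- pups. All Ocn-/- forebrains were above WT, while Ocn+/- 3 lay within the WT range. The differences were 0.41 ± 0.16 (SE; edgeR adjusted p = 0.153) and 0.55 ± 0.16 (0.0538), and neither was called. Over 17 alternatives the adjusted p of the second ran from 0.000613 to 0.173. It was called under 8 of them, among them DESeq2 (0.0206), and the first difference under 1, the fit without a filter on low counts.

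**Figure D3:**
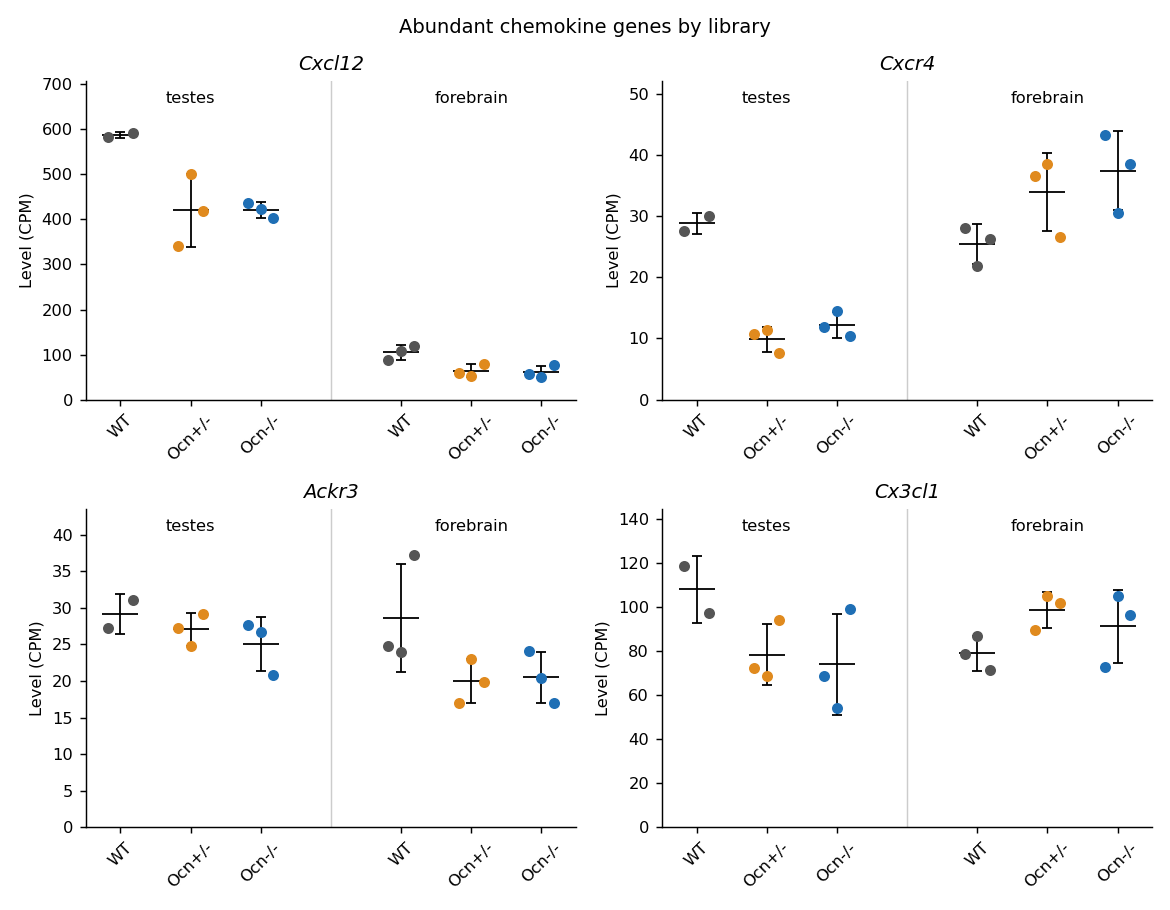
Levels (CPM) of Cxcl12, Cxcr4, Ackr3 and Cx3cl1 in each library (points), with the mean and SD of each genotype (black bars), testes to the left and forebrain to the right of the grey line. Cxcr4 lies between 7.56 and 14.5 CPM in the 6 mutant testes against 27.6 and 30.03 CPM in WT, and is not lower in mutant forebrains.

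Cxcr4 was the 1 gene among the 8 called for a difference in mutant effect between organs. In a joint fit of all 17 libraries, in which 17800 genes were tested and 2.96% were called for such a difference, the mean effect of both mutant genotypes on Cxcr4 was 1.88 ± 0.23 higher in forebrain than in testes on the log2 scale (SE; edgeR adjusted p = 5.57e-05). The value ran from 1.76 to 1.98 over 24 alternatives and was called in each of them. For Cx3cl1 the difference was 0.78 ± 0.25 (adjusted p = 0.095), for Ccr1 0.39 ± 0.71 (0.83), for Cxcl12 -0.24 ± 0.23 (0.625) and for Ackr3 -0.31 ± 0.23 (0.503). These 4 were not called, and Ccl3 was too low in testes for the joint fit. The value for Cx3cl1 was called under 4 of 24 alternatives, among them DESeq2 (0.0313) and the fit without testis Ocn-/- 3 (0.0123).

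Markers of endothelial cells and neutrophils were lower in the same testes as Cxcr4 and Cxcl12. The summed level of 8 endothelial markers was 626 to 628 CPM in WT, 385 to 449 CPM in Ocn+/- and 361 to 394 CPM in Ocn-/- testes, and edgeR called 4 and 6 of the 8, beside 8.25% and 5.64% of all genes, all lower, among them Kdr (-0.71 and -0.99) and Flt1 (-1.43 and -1.53), receptors of VEGF. In forebrain the sum was 208 to 261 CPM in WT, 171 to 207 CPM in Ocn+/- and 171 to 227 CPM in Ocn-/- pups, where edgeR called 3 and 2 of the 8, beside 3.89% and 4.85% of all genes, all lower, among them Flt1 (-1.35 and -1.28). The signs over the list were mixed in forebrain, with 4 of 8 above 0 in Ocn+/- and 3 of 8 in Ocn-/- pups, and medians of -0.18 and -0.27. The sum of 8 neutrophil markers was 42.1 to 67.9 CPM in WT, 5.58 to 14.9 CPM in Ocn+/- and 3.44 to 11.6 CPM in Ocn-/- testes, and at most 3.11 CPM in any forebrain. The defining gene Elane had 0 counts in WT testes.

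The sum of 10 hypoxia genes was 710 to 878 CPM in WT, 344 to 351 CPM in Ocn+/- and 358 to 375 CPM in Ocn-/- testes. In forebrain it was 454 to 568 CPM in WT, 303 to 326 CPM in Ocn+/- and 306 to 337 CPM in Ocn-/- pups. Vegfa, the growth factor of blood vessels, was lower in both organs (-1.12 and -1.24 in testes, -1.15 and -1.22 in forebrain). The part of endothelial cells, neutrophils or these hypoxia genes in the differences of Cxcl12 and Cxcr4 was not tested.

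Ackr3 (ENSMUSG00000044337, chr1:90131689-90144473, plus strand) was not called in either organ with the filter on low counts. In testes it was at 27.2 and 31.0 CPM in WT, 27.2, 24.7 and 29.2 CPM in Ocn+/- and 27.6, 26.6 and 20.9 CPM in Ocn-/- pups, and the groups overlapped. In forebrain it was at 24.8, 24.0 and 37.2 CPM in WT, 17.04, 23.02 and 19.8 CPM in Ocn+/- and 24.0, 20.4 and 17.01 CPM in Ocn-/- pups, with the highest value in WT 3, the library that stood apart. The differences were -0.11 ± 0.18 and -0.22 ± 0.18 in testes and -0.50 ± 0.17 and -0.46 ± 0.17 in forebrain (SE; edgeR adjusted p = 0.741, 0.489, 0.114 and 0.132). Without forebrain WT 3 the differences in forebrain were -0.29 and -0.25. Without a filter on low counts Ackr3 was called in Ocn+/- (-0.49, edgeR adjusted p = 0.0168) and Ocn-/- forebrains (-0.45, 0.0324).

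Cx3cl1 (ENSMUSG00000031778, chr8:95498637-95509055, plus strand) was not called against WT in either organ with the filter on low counts. It was at 119 and 97.4 CPM in WT testes, 72.5, 68.6 and 94.2 CPM in Ocn+/- and 69.0, 54.0 and 99.1 CPM in Ocn-/- testes. Only testis Ocn-/- 3 overlapped with WT. In forebrain it was at 78.9, 87.1 and 71.3 CPM in WT, 89.7, 105 and 102 CPM in Ocn+/- and 72.8, 105 and 96.3 CPM in Ocn-/- pups. The differences were -0.46 ± 0.23 and -0.55 ± 0.23 in testes and 0.32 ± 0.12 and 0.21 ± 0.12 in forebrain (SE; edgeR adjusted p = 0.233, 0.189, 0.143 and 0.332). Without testis Ocn-/- 3 the second was -0.81 and was called (adjusted p = 0.0129). Without a filter on low counts Cx3cl1 was called in both mutant testes (adjusted p = 0.021 and 0.00425) and, in the opposite direction, in Ocn+/- forebrains (0.33, adjusted p = 0.0223). Of its exon bases, 10.8% lie opposite the antisense gene 1700121C10Rik.

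Cx3cr1, the receptor of Cx3cl1, is not among the 8 genes but was called in 3 of the 4 comparisons with WT. It was at 6.997 and 6.69 CPM in WT testes, 16.7, 23.7 and 19.4 CPM in Ocn+/- and 17.4, 14.5 and 7.83 CPM in Ocn-/- testes. In forebrain Cx3cr1 was at 11.8, 11.5 and 6.23 CPM in WT, 18.9, 17.98 and 17.7 CPM in Ocn+/- and 18.6, 21.2 and 17.8 CPM in Ocn-/- pups. No mutant library overlapped with WT in either organ. The Cx3cr1 differences were 1.54 ± 0.30 (SE; edgeR adjusted p = 0.00785) and 0.96 ± 0.30 (0.0722) in testes, and 0.84 ± 0.17 (0.0113) and 0.91 ± 0.17 (0.00582) in forebrain. The value in Ocn-/- testes was called under 4 of 16 alternatives, among them DESeq2 (adjusted p = 0.038). Both forebrain calls held in all 17 alternatives and were 0.64 and 0.72 without forebrain WT 3, whereas the call in Ocn+/- testes was lost without WT 1 (0.0868) or WT 2 (0.109). The macrophage and microglia sums given above were 154 to 161 CPM in WT and 141 to 186 CPM in mutant forebrains. Spp1 and Igf1, of the activated microglia list, were higher in the same mutant forebrains. The part of these cells in the Cx3cr1 differences was not tested.

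**Figure D4:**
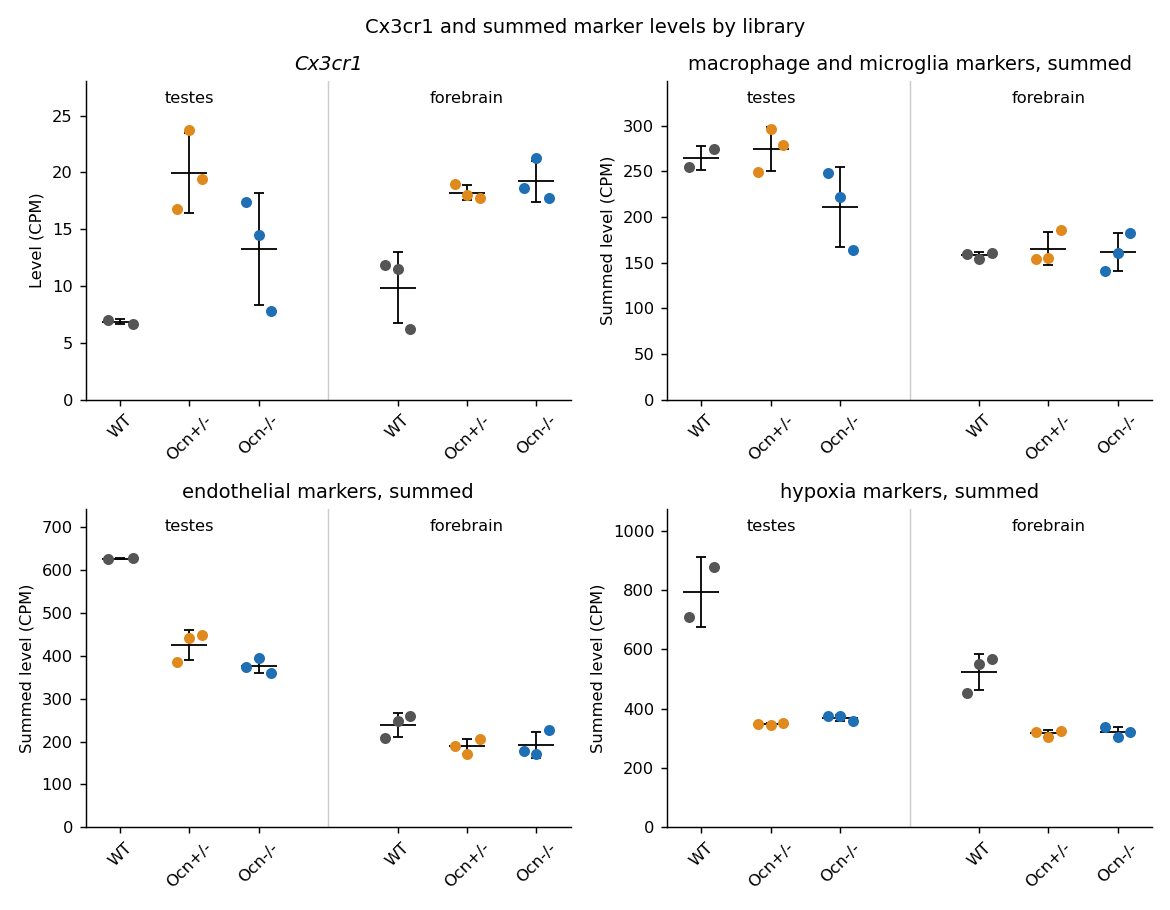
Level of Cx3cr1 and summed levels of 16 macrophage and microglia, 8 endothelial and 10 hypoxia genes (CPM) in each library (points), with the mean and SD of each genotype (black bars). Cx3cr1 is higher in all mutant libraries than in WT of the same organ, the macrophage and microglia sum overlaps in forebrain, and the hypoxia sum is lower in all mutant libraries.

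No chemokine gene was called between Ocn-/- and Ocn+/- pups, the comparison with the same maternal genotype. Of all genes tested, edgeR called 0% in testes (0 of 16361, with 1881 at an unadjusted p under 0.05, and 76 called by DESeq2) and 0.00622% in forebrain (1 of 16076, with 515 at an unadjusted p under 0.05, and 5 called by DESeq2). None of the 8 genes was among them by either tool, nor any of the 65 family genes. The differences of the tested genes were between -0.11 and 0.30 in testes (Ackr3 and Cxcr4) and between -0.68 and 0.14 in forebrain (Ccr1 and Cxcr4). Their standard errors were up to 0.40 in testes and 0.51 in forebrain; those were the errors of Ccr1 and Ccl3. The Ccr1 counts of Ocn+/- forebrains were all above those of Ocn-/- forebrains.

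In the joint fit 71.1% of all genes tested were called between WT forebrain and WT testes, and 2 of the 8 genes were among them. Cxcl12 was lower in forebrain by 2.17 ± 0.19 on the log2 scale (SE; edgeR adjusted p = 9.95e-09), 4.51-fold, and Ccr1 by 2.05 ± 0.68 (0.0097). The Ccr1 value was not called without testis WT 1 (-1.45, adjusted p = 0.152) and was -2.61 without forebrain WT 1, so that the order of Cxcl12 and Ccr1 is not settled. Cxcr4 (0.14 ± 0.20), Ackr3 (0.28 ± 0.19) and Cx3cl1 (-0.13 ± 0.21) were not called, and the signs of Cxcr4 and Ackr3 turned under library size alone, which moved the median of all genes from -0.08 to -0.39. Cx3cl1 was at -0.45 under that scaling, and its value ran from -0.26 to 0.03 when 1 library was left out, above 0 without testis WT 1.

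Per exon length, in TPM (counts per exon length, scaled to the same total in each library) averaged over the libraries of an organ, mutant libraries being 6 of 8 and 6 of 9, the order of the chemokine family in testes was Cxcl12 at 226 TPM (range 173 to 272), Cx3cl1 at 86.4 (56.2 to 115), Ccl17 at 67.4 (50.8 to 80.9), Ccl21a at 40.4 (13.4 to 77.0) and Cxcr4 at 34.3 TPM (16.9 to 63.3). Ackr3 followed at 13.6 TPM (10.6 to 15.1). In WT testes alone Cxcr4 (60.7 TPM) came after Cx3cl1 (104 TPM) and before Ccl17 (59.0 TPM) and Ccl21a (22.7 TPM). Cxcl12 stood clear of Cx3cl1 and Cxcr4 stood clear of Ackr3, while the ranges of the other neighbours in this order overlapped. In forebrain Ackr1 led at 120 TPM (93.6 to 144), followed by Cx3cl1 at 97.5 (55.1 to 122), Cxcr4 at 76.6 (44.3 to 111), Ccl27a at 53.6 (36.7 to 83.5) and Cxcl12 at 38.5 TPM (26.6 to 54.8), each overlapping with the next. In WT forebrains alone Ccl27a (72.5 TPM) came before Cxcr4 (54.7 TPM). Ackr3 was at 11.9 TPM (9.27 to 14.1) and Ccl3 at 3.86 TPM (0 to 6.92). Of the exon bases of Ackr1, an atypical receptor that binds many chemokines, 25.7% are also exons of Cadm3 on the same strand, so that its level in forebrain is uncertain.

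**Figure D5:**
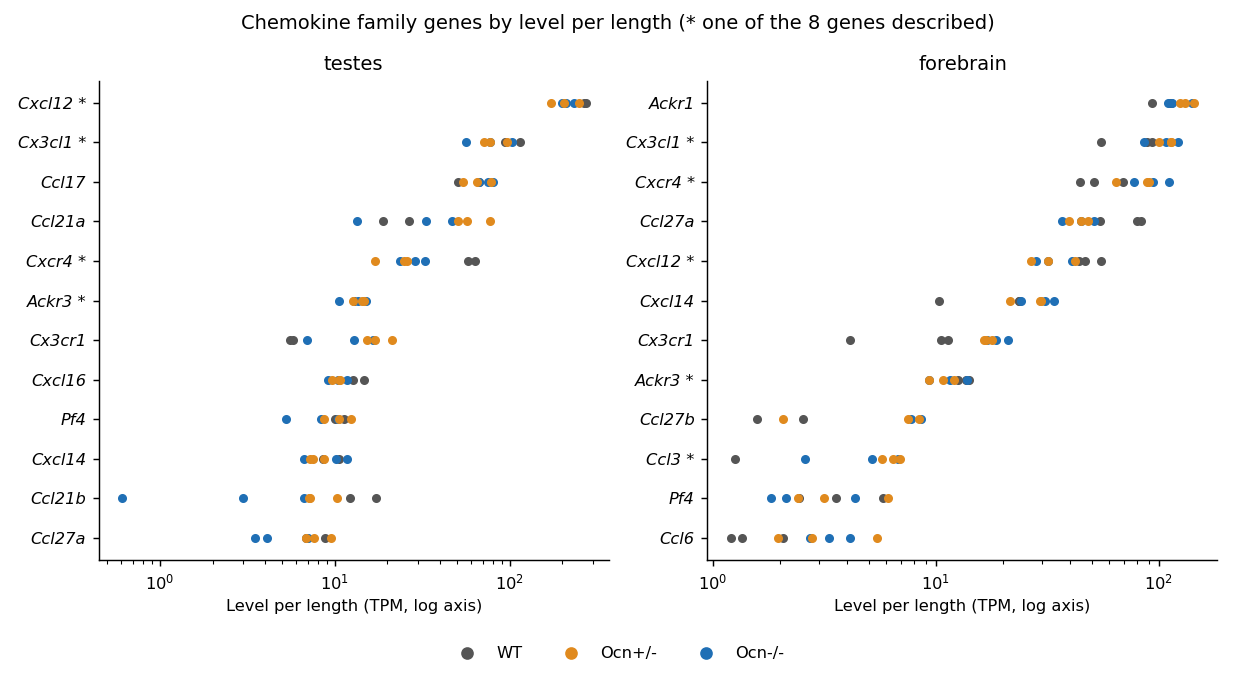
The 12 chemokine family genes with the highest mean level per length (TPM, log axis) in testes and in forebrain, each point 1 library coloured by genotype and libraries at 0 left out. In testes Cxcl12 lies above all others, and in forebrain Ackr1, Cx3cl1 and Cxcr4 lead with overlapping values over all genotypes, while in WT alone Ccl27a (72.5 TPM) is above Cxcr4 (54.7 TPM).

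Of the 65 family genes, 24 were tested in testes and 19 in forebrain. Beside the 8 genes and Cx3cr1, Ccl27a and Ccl21b were called against WT. Ccl27a, a ligand of Ccr10, was at 48.3, 53.1 and 47.9 CPM in WT forebrains, 27.5, 25.0 and 29.7 CPM in Ocn+/- and 25.8, 21.5 and 31.1 CPM in Ocn-/- forebrains. Its difference was -0.86 ± 0.13 (SE; edgeR adjusted p = 0.000781) and -0.93 ± 0.13 (0.000443), and both calls held in the 17 alternatives tried. As much as 82.1% of the 50-base stretches of the Ccl27a transcript also occur in other genes, its near-identical copies among them, so that its counts depend on how RSEM divided shared reads. Ccl21b, a lymphoid chemokine whose stretches all occur in other genes such as Ccl21a, had 30 and 22 counts in WT testes, 16, 12 and 11 in Ocn+/- and 1, 11 and 5 in Ocn-/- testes (-2.21 ± 0.63, adjusted p = 0.0497), a call lost under 10 of 14 alternatives. The median difference over the tested family genes, the 8 genes included, was -0.24 and -0.43 in Ocn+/- and Ocn-/- testes. In Ocn+/- and Ocn-/- forebrains it was 0.32 and 0.21. Without the 8 genes the medians were -0.14 and -0.40 in testes and 0.30 and -0.02 in forebrains. In Ocn-/- forebrains 6 of these other genes were then above 0 and 7 below.

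Among 22 genes that act with the receptors, all tested in both organs, edgeR called 3 in Ocn+/- testes, 0 in Ocn-/- testes and 1 in the forebrain of each mutant genotype. These shares, 13.6% in Ocn+/- testes and 4.55% in forebrain, stand beside 8.25% of all genes in Ocn+/- testes and 3.89% and 4.85% in forebrain, and nothing is read from them about the list. In Ocn-/- testes 7 had an unadjusted p under 0.05, and DESeq2 called 1, Dpp4, a protease that cleaves Cxcl12. The 3 in Ocn+/- testes were Grk2, a kinase that turns off activated receptors (0.46 ± 0.14, adjusted p = 0.0487), and the proteases Adam10 (-0.50 ± 0.12, 0.0181) and Adam17 (-0.58 ± 0.14, 0.0201), which release Cx3cl1 from the membrane. In forebrain Ptk2b, a kinase activated downstream of chemokine receptors, was higher in Ocn+/- (0.49 ± 0.13, adjusted p = 0.0375) and Ocn-/- pups (0.48 ± 0.13, 0.0375). Of 9 cytokine and NF-kB genes, 5 were tested in testes and 4 in forebrain. The 1 called against WT was Ptgs2, lower in Ocn-/- testes, where 5.64% of all genes were called. In Ocn-/- forebrains 3 of the 4 tested had an unadjusted edgeR p under 0.05, as had 3489 of all 16076 genes. Il6 had at most 1 count in any library.

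The genes whose level per library, centred on its mean, differed least from that of a member were found for the 2 most variable members per organ with at least 1 CPM. For Cxcl12 in the 9 forebrains these were Col4a1 (root mean square difference 0.101 on the log2 scale), Col4a2 (0.109) and Vasn (0.114), the first 2 being the basement membrane collagens. For Ackr3 in forebrain they were Ero1a (0.0908), Slc25a30 (0.11) and 5930403N24Rik (0.116). For Cxcr4 in the 8 testes they were Cpeb2 (0.146), mt-Rnr1 (0.165) and Rgs2 (0.169), and for Ccr1 they were Phtf1os (0.312), 4933431K14Rik (0.337) and BC043934 (0.356). The smallest differences were found for the least variable members.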

How the data were processed

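The authors deposited RSEM expected counts per gene for 17 libraries in 1 table. The submitters' processing notes name Trim Galore 0.6.6, STAR 2.7.8a and RSEM 1.3.3. The genome build is GRCm39, and the strand setting of the counting is not given in the sources used here. Expected counts were rounded to whole numbers (9625 genes had a value that was not whole), and 54749 of 55359 identifiers were named from GENCODE. Genotypes were taken from the labels. Genes that passed filterByExpr were tested with edgeR 4.0.16 (TMM normalization, robust quasi-likelihood fit, two-sided, Benjamini-Hochberg adjustment over all genes tested, R 4.3.3), with the 3 genotypes of an organ in 1 fit and all libraries in a joint fit for comparisons between organs. Standard errors are the fold change divided by the square root of its F statistic. The code was tested on simulated data. CPM values use TMM library sizes, and TPM values divide by the summed length of all annotated exons. A count of 0 was taken to allow up to 3 counts.

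The 8 genes, the lists and the tests were chosen with earlier results of these data known. Of the rest of the chemokine family, genes called between genotypes and the 5 most abundant per length in each organ were named. From the lists of signalling partners and cell markers up to 4 called genes were named, and Apoe beside these after its values were seen. Alternatives were RLE, upper quartile and no scaling beyond library size, DESeq2 1.42.0, no filter, at least 10 counts in every library, a replicate block, only the genotypes compared, and leaving out each library in turn. Promoter windows were read from GRCm39. Depth per library is given above, and intervals on counts cover counting error only.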

Additional observations from a re-analysis of the deposited data

Results flagged for a closer look

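The effect of the mutant genotypes on Cxcr4 differed between the organs. The mean difference of Ocn+/- and Ocn-/- pups from WT was 1.88 higher in forebrain than in testes on the log2 scale, with an edgeR adjusted p of 5.57e-05 for the difference itself over 17800 genes tested.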

How the results depend on the processing

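The number of chemokine family genes called was 3 in Ocn+/- testes, 3 in Ocn-/- testes, 4 in Ocn+/- forebrains, 3 in Ocn-/- forebrains, 16 between the WT organs and 1 for the difference in mutant effect between organs, of 24 tested in testes, 19 in forebrain and 28 in the joint fit. Of all genes, 8.25%, 5.64%, 3.89%, 4.85%, 71.1% and 2.96% were called in the same order. Without a filter on low counts the family counts became 6, 7, 8 and 6 against WT and 3 for the difference between organs, and 1 gene was called between Ocn-/- and Ocn+/- testes. In that fit 7.36%, 6.04%, 4.37% and 5.19% of all genes were called against WT (2149, 1763, 1265 and 1502 genes, against 1350, 922, 625 and 780 with the filter), 3.12% for the difference between organs and 0.863% between mutant testes. With at least 10 counts in every library, which removes Ccl3 and Ccr1 in forebrain, 2 were called in Ocn+/- forebrains and 5 between organs. Of all genes, 4.59% and 73.4% were called there. With only the genotypes compared in the fit, 5 were called in Ocn+/- testes, beside 13% of all genes. With library size alone, 5 were called in Ocn-/- forebrains, beside 4%. DESeq2 called 2 for the difference between organs, beside 5.77%. Leaving out 1 library at a time gave 1 to 5 in Ocn+/- testes, 0 to 4 in Ocn-/- testes (0 without WT 2), 2 to 5 in Ocn+/- forebrains, 2 to 5 in Ocn-/- forebrains, 13 to 17 between WT organs and 1 to 2 for the difference between organs. A WT testis left alone was assumed to vary like the other groups. No called difference of the 8 genes, Cx3cr1, Ccl27a and Ccl21b against WT changed sign under these alternatives. DESeq2 gave no adjusted p for Ccl3 and Ccr1 in forebrain against WT.

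Whether the replicate numbers pair the samples is not settled. Of the same-numbered pairs, 0 of 7 of testes and 2 of 9 of forebrains had deviations correlated over 0.1. Their r ran from -0.0937 to 0.0871 and from -0.0366 to 0.146. Pairs with different numbers reached 0.119 in testes and 0.105 in forebrain. The deviations of 2 WT testes mirror each other (-0.0937 and 0.0937 with Ocn-/- 1), so groups this small cannot exclude pairing. With the replicate block, 4, 4, 5 and 5 family genes were called in the comparisons with WT in the order above. Of all genes, 5.9%, 5.11%, 4.78% and 7.09% were called there. Between WT organs 15 were called, beside 64.9% of all genes, and 2 for the difference between organs, beside 2.05%. Cx3cl1 was called with the block in Ocn+/- and Ocn-/- testes (edgeR adjusted p = 0.0117 and 0.00541) and between WT organs (-0.38, 0.0304). Cxcl12 lost its call in Ocn+/- testes with the block (0.0702) and was called in both mutant forebrains (0.000414 and 0.000163). Counts at the depth of these libraries limited Ccl2, Ccl3, Ccl4 and Ccr1, and Ccl2 and Ccl4 could not be tested with the filter.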
